A study of Mus musculus with 5 samples.

Results

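The genes described here build the central spindle and carry out cytokinesis, and they were taken as a named set, with earlier results of these data known. They are *Prc1*, *Racgap1*, *Ect2*, *Anln*, *Cep55*, *Cit* and *Rhoa*, 7 of the 19938 genes with a probe set of 1 gene symbol on the arrays, and all 7 were measured. The samples were 5 lines of 6DT1, a highly metastatic mouse mammary carcinoma cell line, each arrayed once on an Affymetrix Mouse Gene 1.0 ST array. The knockdown cohort comprised H3 and H4, which carried lentiviral shRNAs against *Arid4b* in the pLKO.1 vector and had ARID4B protein at 0.19 and 0.15 of the scrambled control by densitometry. In the control cohort, line H5 carried another *Arid4b* hairpin that left the protein at 1.02, a line carried the scrambled control in the same vector, and untransduced cells, with the protein at 1.09, had neither virus nor selection. All 4 transduced lines were selected with puromycin and grown as pooled clones, so each value describes 1 pool of cells and p-values measure the spread between these lines, which may be partly technical.

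Cytokinesis is the last step of cell division. As chromosomes separate, antiparallel microtubules between them are bundled into the central spindle, which directs the small GTPase RhoA to the cell equator, where it drives assembly of an actomyosin ring. The ring closes onto the central spindle and leaves the midbody, a bridge that is cut in abscission. Most dedicated cytokinesis genes are transcribed in G2 and mitosis, whereas RhoA also serves adhesion and movement throughout the cell cycle. A culture with fewer dividing cells and a culture with less of these mRNAs in each dividing cell cannot be told apart in RNA from whole cultures.

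Because genes transcribed in G2 and mitosis often carry a cell cycle genes homology region, a promoter element most often spelled TTTGAA and bound by the MuvB complexes, and upstream of it CCAAT boxes bound by NF-Y, the promoters are shown first. The stretches run from 120 bases before to 50 bases after the most upstream annotated start, 5′ to 3′ on the gene's strand, from RefSeq on build GRCm38.p6. Capitals mark TTTGAA and CCAAT on either strand, the reverse forms reading TTCAAA and ATTGG.
Prc1, chr7:80294331-80294500, plus strand: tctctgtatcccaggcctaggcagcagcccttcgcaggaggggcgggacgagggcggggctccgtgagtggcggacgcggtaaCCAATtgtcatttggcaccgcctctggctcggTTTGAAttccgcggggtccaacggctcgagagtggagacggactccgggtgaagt
Racgap1, chr15:99651607-99651776, minus strand: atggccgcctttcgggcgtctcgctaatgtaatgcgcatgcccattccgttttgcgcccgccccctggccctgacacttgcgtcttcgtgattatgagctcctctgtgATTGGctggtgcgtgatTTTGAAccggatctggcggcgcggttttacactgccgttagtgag
Ect2, chr3:27153829-27153998, minus strand: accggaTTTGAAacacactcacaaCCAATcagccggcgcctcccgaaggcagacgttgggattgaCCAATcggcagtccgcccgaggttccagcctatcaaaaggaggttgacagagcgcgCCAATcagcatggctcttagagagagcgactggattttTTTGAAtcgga
Anln, chr9:22389157-22389326, minus strand: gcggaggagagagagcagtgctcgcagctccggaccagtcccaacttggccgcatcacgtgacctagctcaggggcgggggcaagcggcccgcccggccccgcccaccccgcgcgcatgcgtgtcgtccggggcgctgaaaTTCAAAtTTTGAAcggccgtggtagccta
Cep55, chr19:38054864-38055033, plus strand: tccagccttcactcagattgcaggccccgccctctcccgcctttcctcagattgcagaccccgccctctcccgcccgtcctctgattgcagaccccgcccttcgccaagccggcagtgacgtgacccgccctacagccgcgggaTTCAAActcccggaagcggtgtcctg
Cit, chr5:115845536-115845705, plus strand: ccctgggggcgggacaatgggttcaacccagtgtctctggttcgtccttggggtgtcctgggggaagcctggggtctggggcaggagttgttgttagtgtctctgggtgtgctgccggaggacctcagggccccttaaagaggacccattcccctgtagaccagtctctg
Rhoa, chr9:108306040-108306209, plus strand: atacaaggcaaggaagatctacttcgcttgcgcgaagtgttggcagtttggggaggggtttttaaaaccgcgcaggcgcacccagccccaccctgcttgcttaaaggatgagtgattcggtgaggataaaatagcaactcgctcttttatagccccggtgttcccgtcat
The letters TTTGAA stood in the promoters of 5 of the 7 genes, *Prc1*, *Racgap1*, *Ect2*, *Anln* and *Cep55*, and not in those of *Cit* and *Rhoa*, which are shown for contrast and carry no capitals. In the RefSeq windows of 250 bases before to 50 after a start, searched on both strands, 17.9% of all 32851 windows and 20.2% of all genes held them. In *Prc1* and *Racgap1* they began at position -5 and +6 from the start, with a CCAAT box at -37 in *Prc1* and, in reverse, at -12 in *Racgap1*. *Ect2* held them at -114 and +40, *Anln* at +29 and in reverse at +22, and *Cep55* in reverse at +25. CCAAT stood in *Prc1*, *Racgap1* and *Ect2*, against 37.4% of all windows and 41.1% of all genes. TTTAAA, a variant spelling, stood in *Rhoa* alone among the 7 (13.2% of all windows). Of the E2F letters, TTGGCGC stood in reverse in *Ect2*, where it overlaps a CCAAT box (2.45% of windows), and TTCCCGC (4.6%) and TTTGGCGC (0.514%), which contains TTGGCGC, stood in none of the 7. A match is a description of letters and not of a bound site.

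*Arid4b* mRNA was lower in the knockdown lines, with log2 values of 6.88 (H3) and 7.35 (H4) under knockdown, against 8.24 (H5), 8.34 (scrambled) and 8.36 (untransduced) in the controls, a log2 difference of -1.20 (standard error 0.15, adjusted p = 0.217 from limma). Array medians lay between 6.24 and 6.35, with the highest in H3, and values of all probe sets had an SD of 2.25 in H3 and at most 2.30 elsewhere, so that values were a little compressed on the H3 array. Of 7 epithelial markers, 5 lay above the array median in every line, with *Krt8* between 11.8 and 12.3, while *Epcam* and *Cdh1* lay between 5.61 and 6.16 and below it. Of 5 measured leukocyte markers, *Cd68* read 10.96 (H3) and 10.96 (H4) against 9.93 to 10.07 in the control lines and *Csf1r* 5.54 (H3) and 5.4 (H4) against 5.26 to 5.30, both past an unadjusted p under 0.05, while *Ptprc*, which defines leukocytes, lay between 4.98 and 5.15 in all 5 lines. *Adgre1* lay between 4.53 and 4.70 and *Cd3e* between 6.16 and 6.48, and neither passed. The mean of those 5 markers was 6.57 in H3 and 6.42 in H4 against 6.23 to 6.27 in the control lines. No marker of fibroblasts and endothelium (7 measured) or of epithelium passed that threshold, and the part of the leukocyte markers in the results below was not tested.

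Knockdown of *Arid4b* was accompanied by lower expression of 6 of the 7 genes, the exception being *Rhoa*. These 6, *Prc1*, *Racgap1*, *Ect2*, *Anln*, *Cep55* and *Cit*, passed limma's unadjusted p of 0.05, the cutoff that the study used, with lower values, and at that cutoff 7.61% of all genes were lower and 4.34% higher (1517 and 866 genes, against 2041 and 509 with array medians subtracted and 1332 and 1300 after quantile normalization). None of the 7 was higher. No gene passed an adjusted p under 0.05 from limma over all genes (0%), while 2 genes did with an unmoderated equal-variance test, 1 in the regression on ARID4B densitometry and 4 with genes of low mean expression left out, none of them among the 7. Without H4, where the spread comes from the control lines alone, 1266 genes did, with *Cep55* among them (adjusted p = 0.0486 from limma). Mean levels of the 6 in the knockdown lines were 37.4% to 60.6% of the control mean, with a median log2 difference of -1.02 over the 7 genes against 0.03 over all genes. In all 7 genes H3 and H4 both lay below every control line, a position found in 13.5% of all genes. The count of 6 fell to 1, *Cep55*, without the untransduced line (5.07% of all genes lower) or without H5 (3.89%). With the scrambled line omitted it was 3, *Racgap1*, *Cep55* and *Cit* (8.0%). An unmoderated equal-variance test also left 1, *Cep55* (4.19%). The log2 differences of the 6 genes were -1.98 (*Cep55*) to -0.99 (*Cit*) without H3, and -0.86 (*Cep55*) to -0.43 (*Ect2*) without H4.

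**Figure D1:**
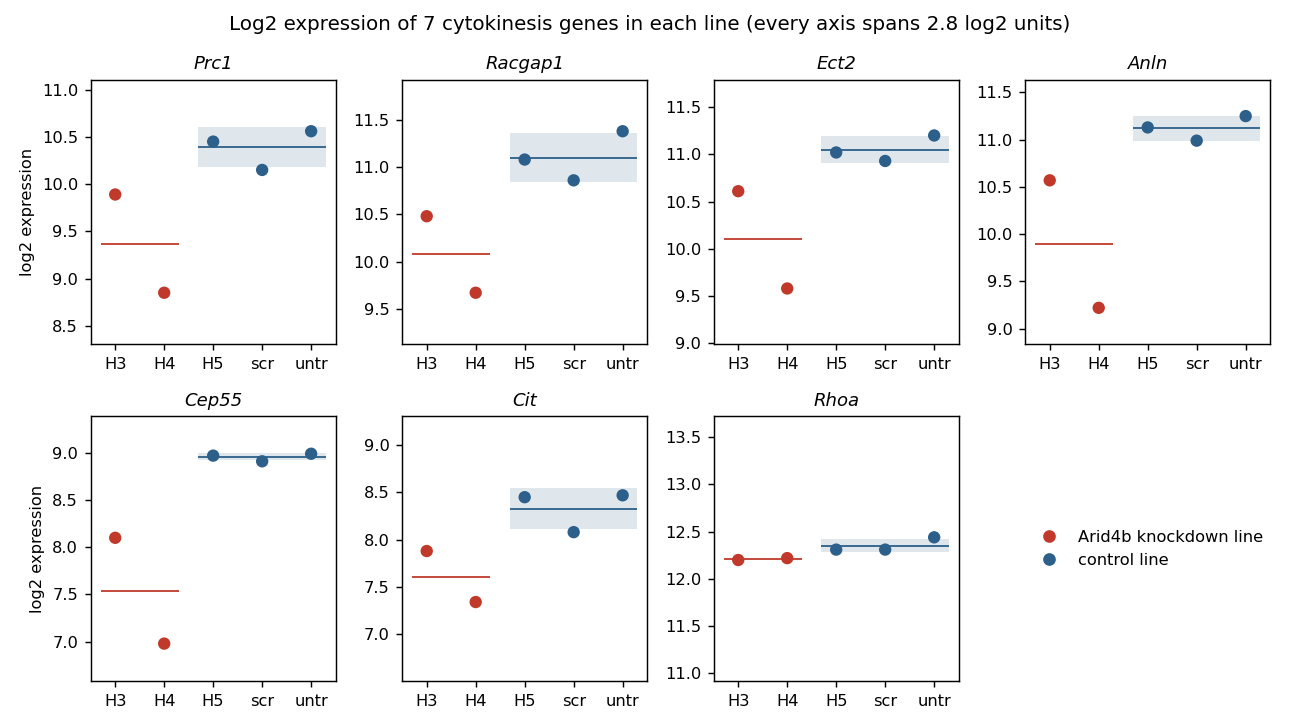
Log2 expression (vertical axis, each spanning 2.8 units) of the 7 genes in the 5 lines, 1 point per line and array, with knockdown lines in red and control lines in blue. Horizontal lines are cohort means and the shaded band is the control mean ± 1 SD (n = 3 lines). H4 is the lowest point in each gene but *Rhoa*, and H3 lies between H4 and the control lines, for *Cep55* at 8.10 with H4 at 6.98.

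*Prc1* encodes the protein that crosslinks antiparallel microtubules and so forms the bundle on which the other proteins gather. Its log2 expression was 9.89 (H3) and 8.85 (H4) under knockdown, against 10.45 (H5), 10.15 (scrambled) and 10.56 (untransduced) in the controls. Both knockdown lines lay below all control lines, with H3 at -0.27 and H4 at -1.3 from the lowest of them. The log2 difference of the cohorts was -1.02 (standard error 0.34, 95% interval -1.91 to -0.12, adjusted p = 0.374), a level of 49.4% of control.

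*Racgap1* encodes the GTPase-activating subunit of centralspindlin, the complex that with the kinesin KIF23 bundles the midzone and receives ECT2. It lay at 10.48 (H3) and 9.67 (H4) under knockdown, against 11.08 (H5), 10.86 (scrambled) and 11.38 (untransduced) in the controls. The groups did not overlap, although the control lines were more spread here than in any other of the 7 genes, over a range of 0.52. The log2 difference was -1.03 (standard error 0.29, 95% interval -1.80 to -0.25, adjusted p = 0.344). *Ect2* encodes the guanine nucleotide exchange factor that RACGAP1 holds at the midzone and that activates RhoA at the equator. It lay at 10.61 (H3) and 9.58 (H4) under knockdown, against 11.02 (H5), 10.93 (scrambled) and 11.20 (untransduced) in the controls. Here H3 lay at -0.31 and H4 at -1.35 from the lowest control line. The log2 difference was -0.95 (standard error 0.33, 95% interval -1.81 to -0.09, adjusted p = 0.383), the interval that came nearest to 0 among the 6 genes.

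*Anln* encodes anillin, the scaffold that ties RhoA, actin, myosin and septins together in the ring. Its log2 expression was 10.57 (H3) and 9.22 (H4) under knockdown, against 11.13 (H5), 10.99 (scrambled) and 11.25 (untransduced) in the controls. The difference of H4 from H3, -1.35, was the widest among the 7 genes. The log2 difference of -1.23 therefore had the largest standard error, 0.42 (95% interval -2.33 to -0.13, adjusted p = 0.381), although *Anln* had the second lowest difference of the 7. *Cit* encodes citron kinase, which binds RhoA and stabilizes the midbody ring. It lay at 7.88 (H3) and 7.34 (H4) under knockdown, against 8.45 (H5), 8.08 (scrambled) and 8.47 (untransduced) in the controls. H3 lay at -0.20 from the scrambled control, a smaller distance than the 0.36 of H5 above it. The log2 difference was -0.72 (standard error 0.21, 95% interval -1.28 to -0.16, adjusted p = 0.349), the smallest of the 6 genes.

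*Cep55* encodes the midbody protein that recruits ALIX and the ESCRT machinery for abscission, and it showed the lowest difference of the 7. It is also 1 of the hub genes of the TPX2 network that the study examined on these arrays, so its position is not independent of that choice. Its log2 expression was 8.10 (H3) and 6.98 (H4) under knockdown, against 8.97 (H5), 8.91 (scrambled) and 8.99 (untransduced) in the controls. The 3 control lines lay within 0.08 of each other, so that even H3 lay at -0.81 from the lowest of them. The log2 difference was -1.42 (standard error 0.34, 95% interval -2.32 to -0.52, adjusted p = 0.313), a level of 55.1% of control in H3 and 25.4% in H4. It ranked as the 12th lowest difference of all 19938 genes, *Anln* as the 34th, *Racgap1* as the 101st, *Prc1* as the 107th, *Ect2* as the 140th and *Cit* as the 312th. *Cep55* passed the unadjusted threshold in all 14 alternative fits to the arrays, whereas the other 5 genes passed in 8 or 9 of them. These fits reuse the same arrays and are not separate checks. The fit with puromycin selection as a covariate and the fit without the untransduced line gave the same values.

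**Figure D2:**
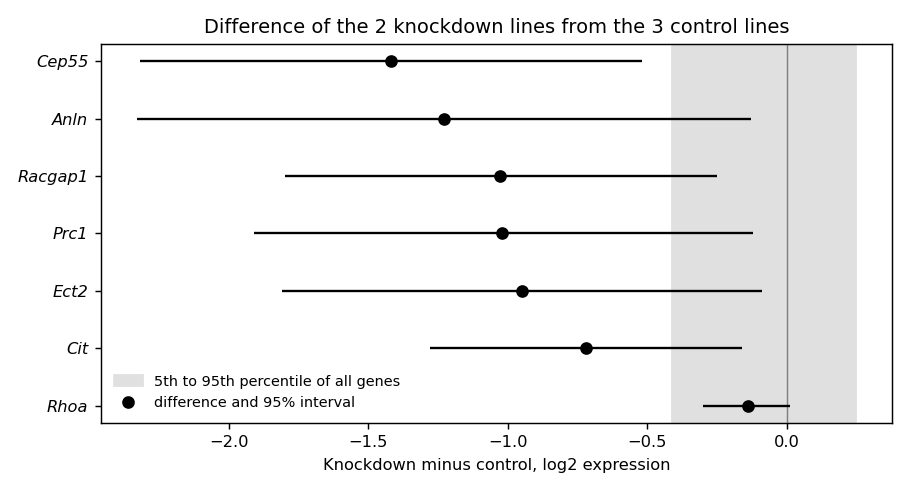
Log2 difference of the knockdown mean (n = 2 lines) from the control mean (n = 3 lines) for each gene, on the horizontal axis, with its 95% interval from limma. The grey band spans the 5th to the 95th percentile of all genes, -0.41 to 0.25. The 6 intervals of *Cep55* to *Cit* lie below 0, and that of *Rhoa* ends at 0.01.

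*Rhoa* encodes the GTPase on which these regulators converge, and its mRNA differed little between the cohorts. Its log2 expression was 12.20 (H3) and 12.22 (H4) under knockdown, against 12.31 (H5), 12.31 (scrambled) and 12.44 (untransduced) in the controls. The lines did not overlap, but H3 and H4 lay only at -0.10 and -0.09 from the lowest control line. The log2 difference was -0.14 (standard error 0.06, 95% interval -0.30 to 0.01, adjusted p = 0.449), a level of 90.7% of control, and it did not pass the unadjusted threshold. A second probe set is annotated to *Rhoa*, and without probe positions it could not be settled whether either of them reads a copy of the gene, so this value may not be of *Rhoa* alone. The second probe set, with lower values, gave 11.97 (H3) and 12.08 (H4) under knockdown, against 12.21 (H5), 12.23 (scrambled) and 12.35 (untransduced) in the controls. On that probe set the log2 difference was -0.23 (standard error 0.07, 95% interval -0.41 to -0.05, adjusted p = 0.345), which passed the unadjusted threshold, so the call for *Rhoa* depended on the probe set while the size of the difference stayed under 0.3 on both. With both probe sets averaged, with array medians subtracted and in the regression on densitometry, *Rhoa* passed as well and the count of lower genes was 7. *Rhoa* ranked 3619th from the lowest difference of all genes.

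Between the knockdown lines, H4 lay below H3 in 6 of the 7 genes, by a log2 difference of 0.5 or more in each, which held in 1.82% of all genes. With 1 array for each line this comparison has no replicate check and was not tested. *Anln* lay at 9.22 in H4 and 10.57 in H3, which is 39.2% of the H3 level, and *Cit*, the least different of the 6, lay at 7.34 in H4 and 7.88 in H3, or 69.0%. Relative to the control mean, the 6 genes lay between -1.98 (*Cep55*) and -0.99 (*Cit*) in H4 and between -0.86 (*Cep55*) and -0.43 (*Ect2*) in H3. In H3 the fall was thus 29.1% to 45.9% of that in H4 on the log2 scale of the deposited values. *Rhoa* lay at 12.22 in H4 and 12.20 in H3, without such a step. The order was the reverse of that of *Arid4b* mRNA, which was 7.35 in H4 and 6.88 in H3, and the same as that of the protein, with densitometry of 0.15 in H4 and 0.19 in H3. That protein difference is small and was not tested here, and with 1 line each the order cannot show a relation. After quantile normalization of the arrays, which removes the compression on the H3 array, H3 still lay below every control line in all 7 genes, at -0.75 (*Cep55*) to -0.36 (*Ect2* and *Cit*) in the 6 genes. With array medians subtracted, *Cit* fell short of the step, at -0.42 between H4 and H3, and 5 genes reached it. The size of the fall in H3 moved with the scaling, and so did its share of the fall in H4. *Ect2* in H3 lay at -0.43 as deposited, -0.36 after quantile normalization and -0.54 with array medians subtracted.

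**Figure D3:**
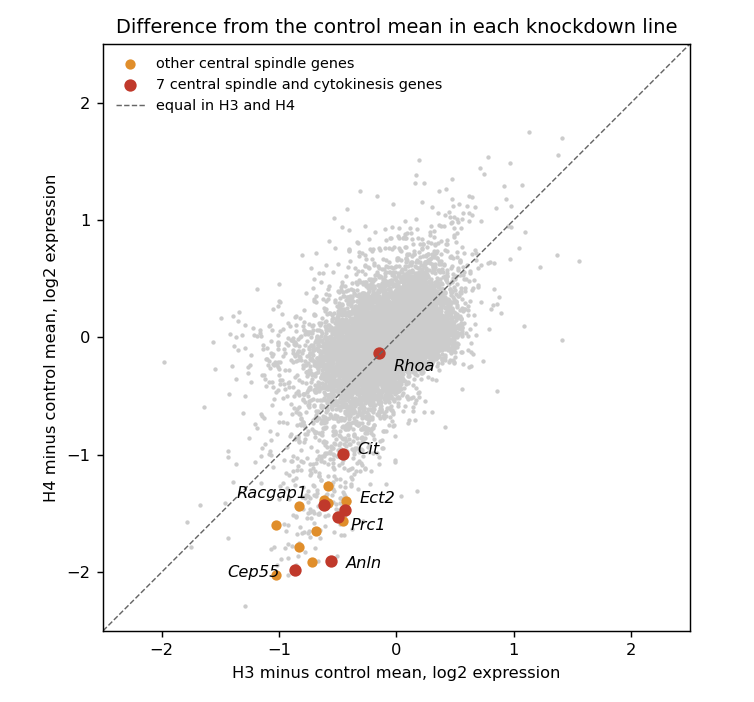
Log2 difference from the mean of the 3 control lines in H3 (horizontal axis) and in H4 (vertical axis), with all 19938 genes in grey. Red points are the 7 genes and orange points 11 other central spindle genes; on the dashed line both lines differ equally from control. The 6 lower genes lie well under the dashed line, *Anln* at -0.55 in H3 and -1.91 in H4, and *Rhoa* lies on it.

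The 3 control lines also stood in a fixed order. In all 7 genes untransduced cells were highest, H5 intermediate and the scrambled control lowest, an order found in 20.3% of all genes, although H5 and the scrambled control differed by 0.00 after rounding in *Rhoa*. On the second probe set of *Rhoa* the order did not hold, with H5 at 12.21 and the scrambled control at 12.23. In the 6 genes other than *Rhoa* the full order of H4, H3, scrambled control, H5 and untransduced cells from low to high was the same (3.39% of all genes). The puromycin-selected control lines had a mean of 10.97 for *Racgap1*, against 11.38 in untransduced cells, a log2 difference of -0.41 and the widest of the 7. For *Cep55* the means were 8.94 and 8.99 and the difference was -0.05, the smallest of the 7. Both knockdown lines had been selected as well, so that selection and knockdown are partly mixed in the comparison of the cohorts. With selection as a covariate, which in effect leaves out the untransduced line, 1 of the 7 genes passed the unadjusted threshold, *Cep55*, at -1.40. The log2 differences of the others were then -0.93 (*Prc1*), -0.89 (*Racgap1*), -0.88 (*Ect2*), -1.17 (*Anln*), -0.65 (*Cit*) and -0.10 (*Rhoa*), each still below 0. H5 and the scrambled control differed from each other by 0.00 (*Rhoa*) to 0.36 (*Cit*), beside differences of H3 from the control mean of -0.86 to -0.43 in the 6 genes.

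The genes of cytokinesis outside the 7 were described by role, as central spindle, contractile ring and abscission genes. Of 11 other central spindle genes, which encode kinesins, the chromosomal passenger complex and their partners, all 11 were lower by the unadjusted threshold (7.61% of all genes), with a median of -1.13. The lowest 3 were *Kif4*, a chromokinesin that moves to the midzone with PRC1, at -1.53 (standard error 0.33), *Kif14*, which brings citron kinase to the midbody, at -1.32 (standard error 0.40), and *Shcbp1*, a partner of centralspindlin, at -1.31 (standard error 0.29). *Kif14* has 2 probe sets, and its difference ran from -1.92 to -0.64 over the alternative fits, so its place among the lowest is uncertain. With probe sets averaged, the median of the 11 genes was -1.01. *Kif23*, named after its values were seen because it completes centralspindlin with RACGAP1, lay at 9.0 (H3) and 8.04 (H4) under knockdown, against 9.79 (H5), 9.61 (scrambled) and 10.07 (untransduced) in the controls. Its log2 difference was -1.31 (standard error 0.32), beside -1.03 for *Racgap1*. The count of 11 was 4 without the untransduced line or without H5, and 8 with the scrambled line omitted. It was likewise 4 with the unmoderated equal-variance test. The shares of all genes lower in these fits are given above. Relative to the control mean, the median of the 11 genes was -0.69 in H3 and -1.57 in H4, so much of the difference came from the H4 array.

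Of 14 contractile ring genes, 3 were lower and none was higher, with a median of -0.12, beside 7.61% lower and 4.34% higher over all genes. The count of 3 was 0 without H5 (3.89% of all genes lower) or with the scrambled line omitted (8.0%), and 2 without the untransduced line (5.07%). It was 1 with array weights (4.54%) or the unmoderated test (4.19%) and 5 with array medians subtracted (10.2%). *Myl12b*, a regulatory light chain of myosin, had a log2 difference of -0.54 (standard error 0.15), and *Septin2*, a filament protein of the ring, one of -0.32 (standard error 0.11). In both, H3 was lower than H4, at 9.72 and 10.15 for *Myl12b* and 10.93 and 11.25 for *Septin2*, which is the opposite order to that of the 6 genes. *Pfn1*, named after its values were seen, was the other lower gene, at -0.16, and *Septin6* had 0.24 and did not pass. Of 17 abscission genes, most of them ESCRT subunits and regulators, none was lower, 1 was higher and 16 did not pass, with a median of -0.06. These counts stand beside the same shares of 7.61% lower and 4.34% higher over all genes. With probe sets averaged, 1 of the abscission genes was lower (7.57% of all genes). The ones with the largest differences were *Rab35* at -0.27, *Spast* at -0.22 and *Vps4a* at -0.20, and *Pdcd6ip*, which encodes ALIX, the partner that CEP55 recruits, read 11.43 (H3) and 11.43 (H4), against 11.41 to 11.51 in the control lines. *Chmp2a*, the gene that was higher, had 0.12 (standard error 0.04). It passed the unadjusted threshold in only 6 of the 14 alternative fits, and not with array medians subtracted. H4 lay below H3 by 0.5 or more in 11 of 11 central spindle genes, 0 of 14 ring genes and 0 of 17 abscission genes, against the 1.82% of all genes given above.

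**Figure D4:**
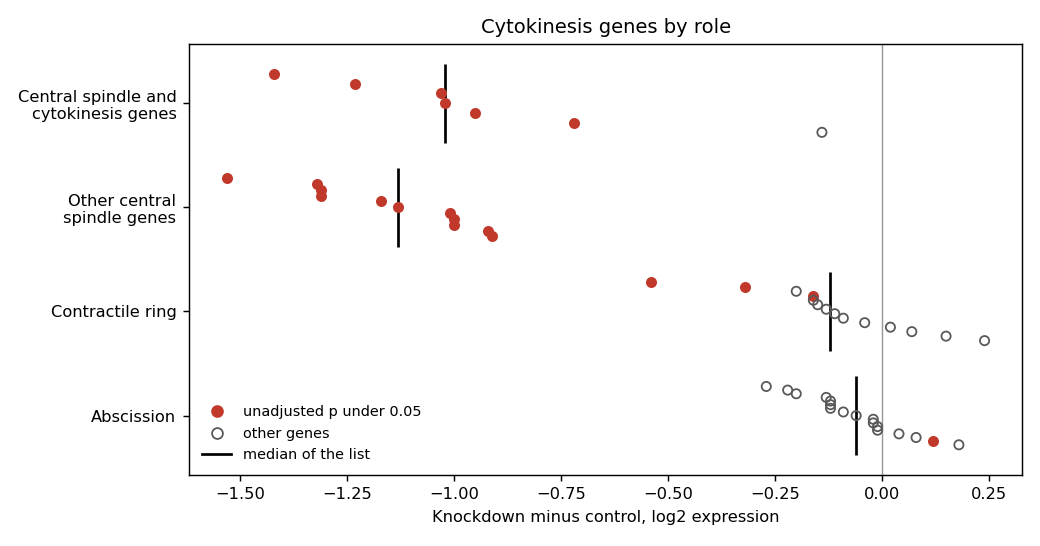
Log2 difference of the knockdown lines from the control lines (horizontal axis) for the 7 genes and for the other central spindle, contractile ring and abscission genes, 1 point per gene, with the median of each list as a vertical bar. Filled points are genes past limma's unadjusted p of 0.05. The 7 genes and the other central spindle genes have medians of -1.02 and -1.13, and the ring and abscission genes medians of -0.12 and -0.06.

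The 7 genes were also compared by their profile, as the root mean square difference between log2 values centred on each gene's own mean over the 5 arrays. The values were centred but not scaled, so a distance reflects the size of the differences as well as their shape. *Prc1* and *Ect2* were the closest pair of the 7, at 0.074, and *Cep55* and *Rhoa* the farthest, at 0.722. Nearest of all genes to *Prc1* were *Foxm1* at 0.036, *Cdca3* at 0.043 and *Aurka* at 0.047. *Aurka* at 0.037, *Cdca3* at 0.048 and *Plk1* at 0.048 were nearest to *Ect2*, so that these 2 genes shared 2 of 3 neighbours. *Racgap1* lay nearest to *E2f8* at 0.050, *Knl1* at 0.052 and *Pclaf* at 0.053. The steeper profiles had more distant neighbours. For *Anln* they were *Hmmr* at 0.092, *Ncapg* at 0.099 and *Esco2* at 0.101, and for *Cep55* they were *Spag5* at 0.073, *Depdc1a* at 0.085 and *Hmgb2* at 0.106. *Cit* lay nearest to *Mcm6* at 0.037, *Mcm7* at 0.042 and *Tgfbr1* at 0.043, and the closest of the other 6 genes, *Racgap1*, was only its 353rd nearest of all genes. *Rhoa* lay nearest to *Hbs1l* at 0.010, *Tlnrd1* at 0.011 and *Ebag9* at 0.012, at distances that are small because these profiles are nearly flat. The distances describe 5 arrays and carry no test.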

How the data were processed

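Total RNA of each line was hybridised to 1 Affymetrix Mouse Gene 1.0 ST array. The deposited values are log2 expression values per probe set that the authors normalized in Partek Genomics Suite, and the submitters' notes also name RMA. Software versions and a genome build were not given in the sources used here. Cohorts came from the *Arid4b* level in the labels. Of 35556 probe sets, 21789 had 1 gene symbol and 1621 had several, which were not used. Symbols were updated through gene IDs, and 21698 of the probe sets with 1 symbol had a gene ID found in RefSeq (GRCm38.p6). For the 999 genes with several probe sets the one with the highest mean was taken.

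For the comparison of cohorts a linear model per gene was fitted to all 19938 genes in R 4.3.3 (limma 3.58.1, lmFit, then eBayes), with Benjamini-Hochberg adjustment and 1.58 prior beside 3 residual degrees of freedom. The code of the fit was run on data simulated from limma's own model, which cannot show whether that model suits these arrays. Standard errors, intervals and p-values are from this fit, and the precision is limited by 5 arrays. The 7 genes, the lists and the tests were chosen with earlier results of these data known. The rule for names took the 7 genes, *Arid4b*, the 3 largest absolute differences of each other list and any gene moving against its list, and the 3 nearest profiles of each of the 7. The other lists held 57 genes, 3 of which had no probe set of 1 symbol, and 1 of these lists is counted in the totals but not reported here. All 7 genes were matched in the RefSeq promoter table. Alternatives were another test, moderation, scaling, filter, probe set rule, array weights, densitometry, a covariate for selection, and the omission of single lines. Figures were drawn with matplotlib 3.10.9.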

Additional observations from a re-analysis of the deposited data

How the results depend on the processing

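Every alternative fit kept the 6 genes and *Rhoa* below control, but sizes and the count past the unadjusted threshold changed. Without H3 the log2 differences were -1.53 (*Prc1*), -1.43 (*Racgap1*), -1.47 (*Ect2*), -1.91 (*Anln*), -1.98 (*Cep55*) and -0.99 (*Cit*), and without H4 they were -0.50, -0.62, -0.43, -0.55, -0.86 and -0.46 in the same order. Of the 7 genes, 6 were lower in the reported fit, 1 with an unmoderated equal-variance test and 1 with puromycin selection as a covariate. With each control line left out in turn, 1 to 3 were lower. An exact two-sided permutation test over the 10 ways to divide the lines cannot go below p = 0.2, so 0 of 7 could pass it. The counts were 6 or 7 with trend and robust options, array medians subtracted, quantile normalization, genes of low mean expression left out, probe sets averaged, array weights and densitometry, and 7 with the other probe set of *Rhoa*, a choice made after seeing the data. Of the 54 other cytokinesis genes, 18 were lower in the reported fit, 9 with the unmoderated test and 10 with selection as a covariate. The shares of all genes that were lower in these fits were 7.61%, 4.19% and 5.07%. With a control line left out, 8 were lower without H5 (3.89% of all genes), 12 without the scrambled line (8.0%) and 10 without the untransduced line (5.07%). The step between H4 and H3 held in 6 genes, and in 5 with array medians subtracted and 6 after quantile normalization, both chosen after seeing the data. With a single knockdown line, its spread had to be taken from that of the controls, so the fits without H3 and without H4 both rest on that assumption. No paired analysis was possible because the labels number no replicates.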
